A study of Mus musculus with 2 samples.

Results

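Plasmacytoid dendritic cells (pDC) were taken as the cell barcodes with at least 2 unique molecular identifiers (UMIs, each 1 captured mRNA molecule) of Siglech and at least 2 detected genes among Ccr9, Bst2, Klk1, Cox6a2 and Tcf4. Only barcodes that had 200 or more genes detected, and no more than 10% of their UMIs from mitochondrial genes, were considered, and they are called kept cells here. It found 102 pDC among 11197 kept cells, 33 of 5504 in the library labelled KP and 69 of 5693 in the library labelled KPT. The pDC were thus selected on the levels of these 6 genes, which are given below as a description.

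The study profiled immune cells of subcutaneous KP mouse tumours by droplet single-cell RNA sequencing with a 3′ kit. Tumours were taken 14 days after inoculation and dissociated, and live CD45-positive cells were sorted after a Percoll gradient. KP is labelled genotype WT and KPT is labelled Tdg KO, where Tdg encodes thymine DNA glycosylase, a DNA repair enzyme. Each group was 1 library, so no difference between KPT and KP has a replicate check, and every interval below is a 95% interval that covers counting error only. Whether the deletion lies in the tumour cells or in the host, how many mice gave each library and what KP abbreviates are not given in the labels.

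pDC are the immune cells known for making large amounts of type I interferon when Toll-like receptors in their endosomes meet viral nucleic acids. The E protein Tcf4 (E2-2) drives their identity together with Irf8, Runx2, Spib and Bcl11a, while Id2, which blocks E proteins, is low in them. Mouse pDC carry Siglec-H, which signals through the adaptor Tyrobp (DAP12), and tetherin (Bst2), and they are known to display CD4 and CD8 on their surface without a T cell receptor.

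Tcf4 protein binds the E-box, CANNTG. The 250 bases before the RefSeq start of 3 of the selection genes are printed here, since they are the most pDC-restricted genes of the rule that have a matched promoter. The sequences are RefSeq's for GRCm38.p6, on the plus strand, and capitals mark every CANNTG. Siglech lies at chr7:55767934-55768183, Ccr9 at chr9:123766961-123767210 and Klk1 at chr7:44225110-44225359. The gene coordinates given further below are those of another annotation, GENCODE, whose Ccr9 gene begins upstream of RefSeq's start, so that the printed Ccr9 stretch lies inside it, and whose Siglech gene begins a few bases before RefSeq's.
Siglech: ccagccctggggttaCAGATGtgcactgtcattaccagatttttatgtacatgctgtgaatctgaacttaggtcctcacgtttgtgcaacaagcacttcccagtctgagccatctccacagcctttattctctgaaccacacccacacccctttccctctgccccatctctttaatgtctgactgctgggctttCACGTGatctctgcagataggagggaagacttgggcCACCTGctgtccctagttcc
Ccr9: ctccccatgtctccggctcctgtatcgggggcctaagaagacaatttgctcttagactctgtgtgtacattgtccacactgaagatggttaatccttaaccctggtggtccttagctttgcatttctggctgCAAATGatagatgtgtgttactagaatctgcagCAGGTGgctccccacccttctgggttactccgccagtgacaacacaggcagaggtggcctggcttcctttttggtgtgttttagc
Klk1: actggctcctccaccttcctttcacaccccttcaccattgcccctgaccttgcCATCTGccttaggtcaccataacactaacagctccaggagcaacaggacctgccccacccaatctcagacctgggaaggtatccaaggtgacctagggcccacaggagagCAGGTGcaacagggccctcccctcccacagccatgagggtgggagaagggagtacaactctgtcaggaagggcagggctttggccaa
These stretches hold 3, 2 and 2 E-boxes, and 1 in each reads CAGGTG or, on the other strand, CACCTG. All 4 selection genes with a matched promoter, Bst2 included, hold that form. On either strand CANNTG is in 66.2% and CAGGTG in 17.2% of all 32851 mouse promoter stretches of this length. Counted by gene, as in the shares of gene lists given next, CAGGTG is in 5252 of 27025, 19.4%. Among other pDC marker genes, 6 of 34 promoters and among pDC transcription factors 4 of 17 hold CAGGTG, shares of 17.6% and 23.5%. A match describes letters only, not a bound site.

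The library labelled KP held 5504 kept cells with a median of 5378 UMIs, and KPT held 5693 with a median of 6419. The labelled target, Tdg, had 19 UMIs in KP pDC (38.1 CPM, meaning UMIs of the gene scaled to 1000000 UMIs summed over the cells of a class) and 44 in KPT pDC (33.8 CPM). The KPT to KP ratio was 0.889 (0.508 to 1.61) in pDC and 1.06 (0.972 to 1.15) in the other kept cells, and a 3′ tag does not check a deletion elsewhere in the gene. The libraries shared 8 barcode sequences, none of them a pDC.

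Many pDC barcodes also held RNA of other cells, which bears on every result below. Summed Cd3d, Cd3e and Cd3g UMIs, the CD3 chains of the T cell receptor complex, were 0 in 58 pDC, exactly 1 in 3 pDC and at least 4 in 41 pDC. Those with at least 4 numbered 11 of 33 in KP and 30 of 69 in KPT, 33.3% (18 to 51.8) and 43.5% (31.6 to 56.0). No pDC fell between these values, as the plot of Cd3 UMIs against depth shows. The Cd3-rich barcodes were also the large ones: their median was 21415 UMIs in KP and 23228 in KPT, against 10629 and 10775 in pDC without any Cd3 UMI.

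**Figure D1:**
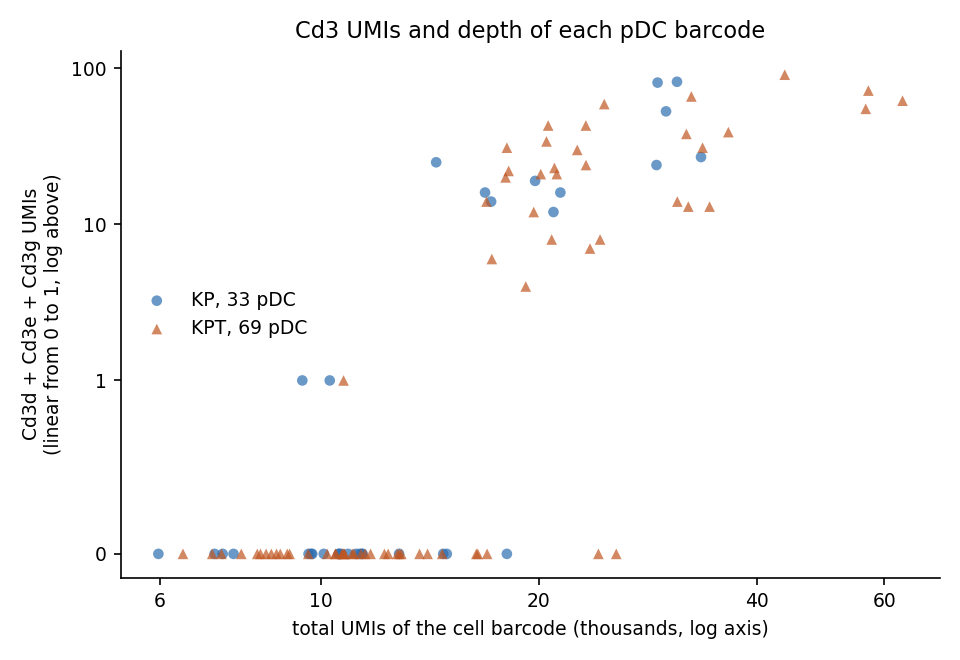
Cd3d, Cd3e and Cd3g UMIs summed (vertical axis, linear to 1 and logarithmic above) against all UMIs (horizontal axis, logarithmic) for each of the 33 KP (circles) and 69 KPT (triangles) pDC. The 58 pDC at 0 lie mostly to the left and the 41 with at least 4 Cd3 UMIs to the right, with medians of 21415 UMIs in KP and 23228 in KPT.

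Cd3 UMIs were also found in other cell classes gated by their own markers. At least 4 Cd3 UMIs were found in 48.2% of KP and 62.5% of KPT type 2 conventional dendritic cell (cDC2) barcodes, in 26.3% and 46.0% of macrophage barcodes and in 23.3% and 28.1% of B cell barcodes. Among pDC, 49 held at least 3 of 20 T cell genes, 12 at least 3 natural killer cell genes, 11 at least 3 macrophage genes, 2 at least 3 neutrophil genes and 1 at least 3 B cell genes. Of the 11 with macrophage genes, 1 was in KP and 10 in KPT. No doublet caller was run. Leaving out all barcodes with 3 or more genes of another lineage left 18 KP and 33 KPT pDC, called clean pDC here, with median depths of 10629 and 10696 UMIs. Results are given for all pDC and for clean pDC, and the coreceptor genes also for the 20 KP and 38 KPT pDC without any Cd3 UMI.

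The edge of the rule was not sharp. Just inside it, the 3 KP and 8 KPT pDC with 2 or 3 Siglech UMIs had median Bst2 UMIs of 41 and 16.5 and median Tcf4 UMIs of 10 and 8, but Cox6a2 was detected in 0 and 1 of them, and 2 and 6 held at least 3 T cell genes. Just outside, 10 KP and 16 KPT barcodes with 1 Siglech UMI and at least 2 of the other 5 genes had median Bst2 UMIs of 13 and 7 and median Tcf4 UMIs of 3 in each library, and 7 and 12 of them held at least 3 T cell genes. Most pDC lay well inside, with at least 8 Siglech UMIs in 24 of 33 KP and 57 of 69 KPT pDC.

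The genes that chose the cells were present at high levels in both libraries. Siglech ranged from 2 to 44 UMIs per cell in KP (median 18) and from 2 to 50 in KPT (median 23), and its summed level was 1319 CPM in KP and 1142 CPM in KPT against 0.434 and 0.510 CPM in the other kept cells. Ccr9, the receptor for the gut chemokine CCL25, had medians of 14 and 16 UMIs with highest values of 95 and 61. It was detected in 31 of 33 and 60 of 69 pDC. Cox6a2, the muscle-type form of a cytochrome c oxidase subunit, was detected in 24 of 33 and 54 of 69 pDC at 864 and 638 CPM. Bst2, tetherin, ran from 7 to 71 UMIs per cell in KP (median 38) and from 4 to 72 in KPT (median 41), so no pDC lacked it. Klk1, a tissue kallikrein protease, was detected in 18 and 38 pDC, so a large minority of pDC in each library lacked it. Tcf4 was detected in 33 of 33 and 68 of 69 pDC with a median of 14 UMIs in both libraries. In the GENCODE annotation of GRCm38 these protein-coding genes lie at chr7:55768178-55778925 (Siglech), chr9:123678439-123784330 (Ccr9), chr8:71534255-71537456 (Bst2, minus strand), chr7:44225360-44229618 (Klk1) and chr7:128205435-128206387 (Cox6a2, minus strand).

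Most pDC marker genes that the rule did not use were also high in the summed pDC, so the label held up against them for the group as a whole. A set of cells with low Siglech, for which it is less sure, is given further below. Irf8, the interferon regulatory factor shared with type 1 conventional dendritic cells (cDC1), stood at 986 CPM in KP pDC and 892 CPM in KPT pDC, 3.50-fold and 2.53-fold above the other kept cells. Ly6d, a surface protein of pDC and B cells, stood at 942 and 975 CPM, 26.8-fold and 45.4-fold above them. Runx2, Spib, Bcl11a, Pacsin1, Atp1b1, Cd209d, Klra17, Lair1, Upb1, Rpgrip1 and Tlr7 were each more than 2-fold higher in both libraries, Spib 71.4-fold and 69-fold and Tlr7 23.3-fold and 25.4-fold. Irf7 and Tlr9 were not: Irf7 stood at 1.80-fold and 1.87-fold (3.12-fold and 3.39-fold in clean pDC), and Tlr9 had 1 UMI in KP and 4 in KPT. Over the lists, 8 of 39 measured surface and other markers and 12 of 21 measured transcription factors did not reach 2-fold in both libraries.

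**Figure D2:**
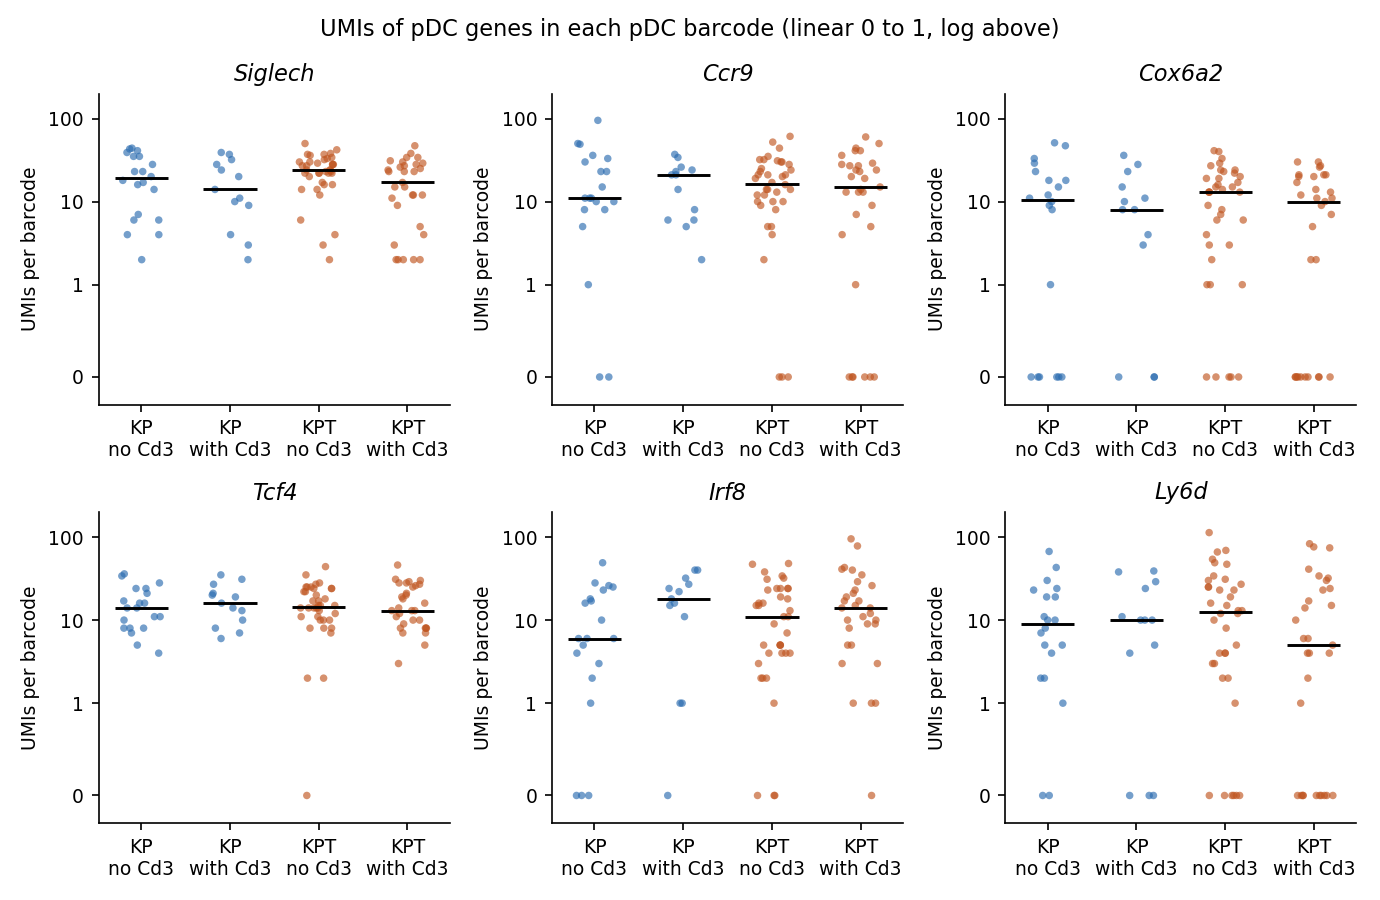
UMIs per pDC (vertical axis, linear to 1 and logarithmic above) of 4 selection genes and of Irf8 and Ly6d, split by library and by whether the barcode held any Cd3 UMI; each point is a cell and each line a median. Siglech has medians of 18 in KP and 23 in KPT over all pDC, and each group spans cells at or near 0 for Cox6a2, Irf8 and Ly6d.

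The plot of levels by class sets pDC beside the other gated classes. Siglech, Klk1 and Cox6a2 were near 0 in those classes, but they are genes of the rule, so this describes the choice of cells. Irf8, which the rule did not use, was high in other classes too: NK cell barcodes had 835 and 838 CPM and cDC1 barcodes 973 and 623 CPM. Ly6d was also high in B cell barcodes, at 637 and 725 CPM, and under 17 CPM in every other class outside pDC. Id2, the E protein inhibitor, stood at 58.8 CPM in KP and 5.78 CPM in KPT clean pDC, below all other classes, whose values ran from 323 CPM in KP B cell barcodes to 1095 CPM in KP migratory dendritic cell barcodes. Over all pDC, with the mixed barcodes, Id2 was 335 and 363 CPM.

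**Figure D3:**
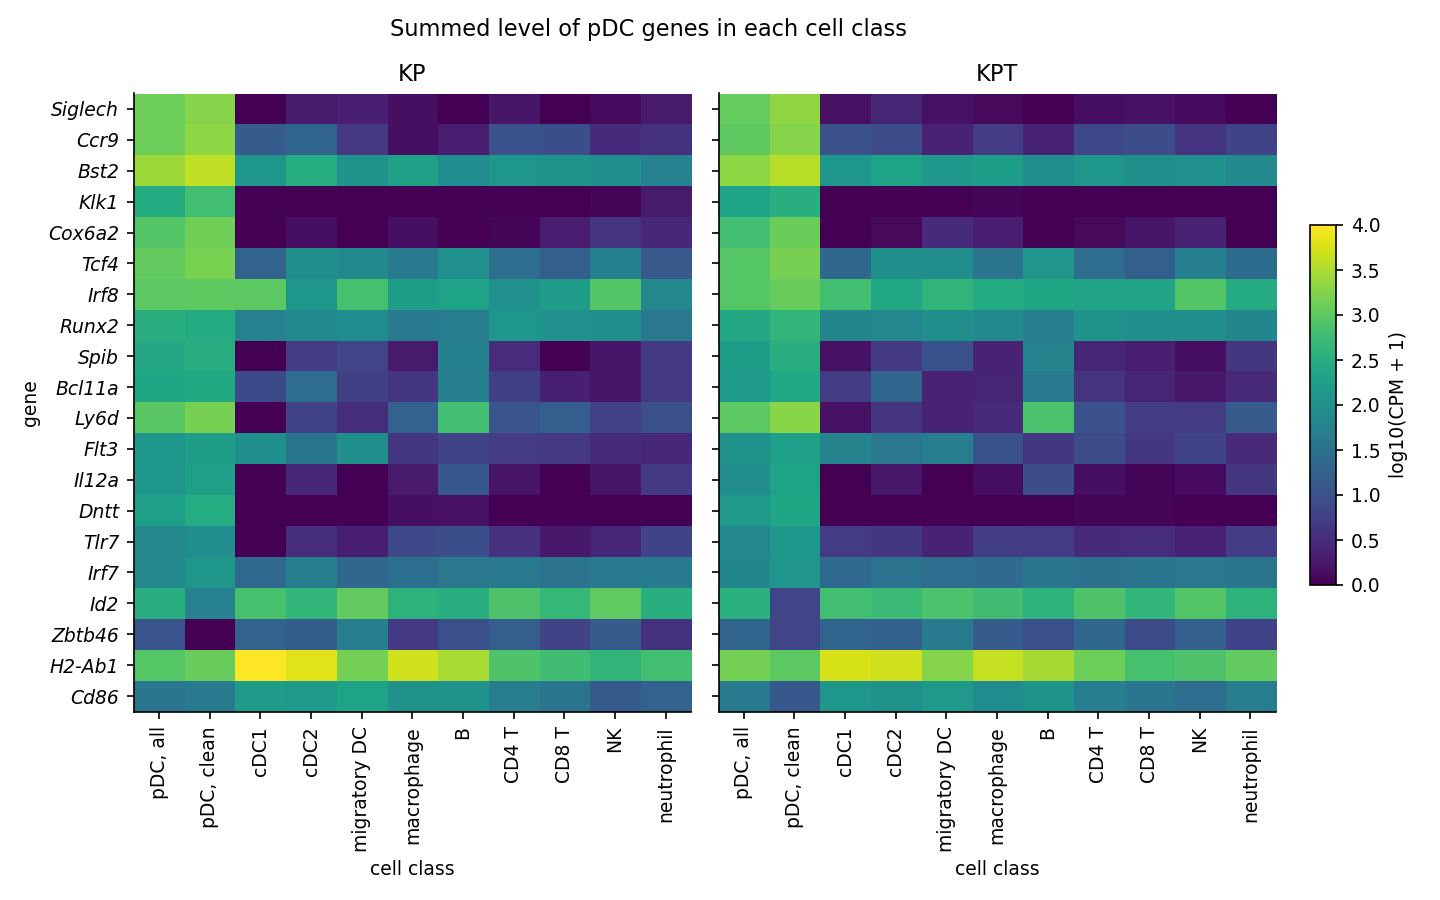
Summed level of 20 genes (rows) in all pDC, in clean pDC and in 9 gated cell classes (columns) of KP (left) and KPT (right); colour is log10 of CPM plus 1. Siglech, Klk1, Cox6a2 and Dntt are bright only in the pDC columns, and Id2 is dark only in clean pDC, at 58.8 CPM in KP and 5.78 CPM in KPT.

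Counted over lists, the pDC programme stood well above the background of all genes. Of 4751 genes with at least 50 UMIs in pDC, 454 (9.56%) were at least 2-fold above the other kept cells in both libraries. In clean pDC these were 394 of 1695 genes (23.2%), and all 276 genes called over all pDC and still measured were called there too. Of 39 measured pDC surface and other marker genes, 31 were at least 2-fold higher, and 31 of 34 in clean pDC. Of 21 measured transcription factors of dendritic cells, 9 were higher, and 9 of 14 in clean pDC. Of 16 of them with at least 50 UMIs in clean pDC or expected there from the other cells, 2 were at least 2-fold lower. Mpeg1, a pore-forming protein of phagocytes, stood at 806 and 715 CPM against 60.1 and 69.5 CPM elsewhere, and Mycl, a Myc family factor of dendritic cells, at 42.1 and 45.4 CPM against 1.33 and 1.63 CPM.

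Outside the selection genes, the 20 genes with the highest pDC level relative to other kept cells were led by Sh3bgr, Dntt, Cdh5, Mn1 and Smim5. Sh3bgr, which encodes a small thioredoxin-like protein, had 58 UMIs in KP pDC and 146 in KPT pDC (116 and 112 CPM) against 0.0256 and 0.0392 CPM in the other cells. Dntt, the terminal transferase that adds nucleotides during antigen receptor rearrangement, had 89 and 186 UMIs in 19 and 44 pDC, 178 and 143 CPM against 0.0767 and 0.0981 CPM. Both were all but absent outside pDC in these libraries. Cdh5, the endothelial VE-cadherin, had 35 and 99 UMIs in 16 and 40 pDC, and Kdr, another endothelial gene, had 0 UMIs in KP pDC and 21 UMIs in 9 KPT pDC (16.2 CPM against 0.294 CPM elsewhere). Il12a, the p35 subunit of interleukin 12, was detected in 22 of 33 and 34 of 69 pDC at 124 and 95.4 CPM against 1.35 and 0.667 CPM in the other cells, while Il12b, which encodes the p40 partner, had 0 and 4 UMIs. The remaining genes, Cacna1e, Atp2a1, Lefty1, Pdzd4, Ptprf, Havcr1, Cd300c, Paqr5, Eldr, Klra17, Spib, Lrp8, Blnk and Gria3, had ratios of pDC to other cells, taken in the library where the ratio was lower, between 42.6 for Gria3 and 146 for Cacna1e.

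At the other end, 145 of 5125 genes (2.83%) were at least 2-fold lower in pDC in both libraries, and 259 of 2040 (12.7%) in clean pDC. The 10 lowest were cytokine, granzyme, phagocyte and epithelial genes. Il6, Il13, Gzmg and Gzmf had 0 UMIs in all 102 pDC against levels from 17.2 to 80.5 CPM elsewhere. Il17a and Clec4d had 0 UMIs in KP pDC and 1 in KPT pDC. Clu, Acod1, Krt18 and Hes1 each had at most 5 UMIs in either library.

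Several nucleic acid sensing genes were present while interferon transcripts were nearly absent. Tlr9, also of the sensing list, had only 1 UMI in KP pDC and 4 in KPT pDC. Unc93b1, the chaperone that carries Toll-like receptors to endosomes, stood at 407 and 368 CPM, 7.08-fold and 6.03-fold above the other cells. Slc15a4, the lysosomal transporter needed for this pathway in pDC, stood at 110 and 87.7 CPM, 7.61-fold and 5.96-fold above them, and Pld4, an endolysosomal exonuclease, at 481 and 425 CPM. Of 19 measured genes of sensing and interferon induction, 7 were at least 2-fold higher in both libraries against 9.56% of all genes, and 8 of 9 in clean pDC against 23.2%. A gene counted as measured only with at least 50 UMIs in the pDC, so genes low in clean pDC could not be among the 9. Of 11 with at least 50 UMIs in clean pDC or expected there from the other cells, 2 were at least 2-fold lower, against 12.7% of all genes. Over all 19 type I and III interferon genes listed, KP pDC had 0 UMIs and KPT pDC had 1, of Ifnl2. At this depth a count of 0 allows about 3 UMIs, 6.01 CPM in KP and 2.31 CPM in KPT, so a level below this could have been missed.

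Interferon-stimulated genes were uneven. Of 11 measured, 2, Stat2 and Trim30a, were at least 2-fold above the other cells, against 9.56% of all genes. Ly6e, a surface protein induced by interferon, stood at 1660 and 1663 CPM against 834 and 954 CPM, and Ifi27l2a at 858 and 579 CPM against 795 and 620 CPM elsewhere. Isg15 was 48.1 and 48.5 CPM, below 77.9 and 79.1 CPM in the other cells.

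The antigen presentation genes H2-Ab1 and Cd86 were low beside conventional dendritic cells. H2-Ab1, an MHC class II beta chain, stood at 1160 and 965 CPM in clean pDC, against 9707 and 5749 CPM in cDC1 barcodes and 6541 and 5179 CPM in cDC2 barcodes. CD4 T cell barcodes had 798 and 1310 CPM, and KPT neutrophil barcodes 1084 CPM. Cd86, a costimulatory ligand, stood at 42.8 and 11.6 CPM in clean pDC against 158 and 130 CPM in cDC1 barcodes and 46.1 and 50.1 CPM in CD4 T cell barcodes. In KP, H2-Ab1 in clean pDC stood above CD4 T cell barcodes and above neutrophil barcodes, at 616 CPM. The KPT value of H2-Ab1 and both values of Cd86 did not stand above those of CD4 T cell barcodes. These other classes, unlike clean pDC, were not cleared of mixed barcodes. H2-DMa, which helps load class II molecules, was higher than in other kept cells, at 524 and 517 CPM in clean pDC against 153 and 167 CPM. Of 17 measured genes of the list, 2, H2-DMa and H2-Oa, were at least 2-fold above the other cells in both libraries, near the 9.56% of all genes.

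Secretory pathway genes were higher as a group in clean pDC. Of 26 measured there, 11 were at least 2-fold above the other cells in both libraries against the 23.2% of all genes, and over all pDC 2 of 30 were, against 9.56%. Xbp1, the unfolded protein response factor of secretory cells, stood at 342 and 451 CPM in clean pDC against 107 and 99.2 CPM elsewhere. Herpud1, a membrane protein of endoplasmic reticulum degradation, stood at 353 and 289 CPM against 84.6 and 87.0 CPM.

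Of 12 measured cytochrome c oxidase subunit genes, 1 was at least 2-fold above the other cells, near the 9.56% of all genes. It was Cox6a2, a gene of the rule, so its level comes from the choice of cells. Its ubiquitous counterpart Cox6a1 stood at 202 and 275 CPM in pDC and at 248 and 269 CPM in the other cells. The other subunit genes also lay near the level of other cells: Cox4i1 was 800 and 792 CPM against 798 and 801 CPM, and Cox8a was 964 and 945 CPM against 1081 and 998 CPM. Cox7a1, Cox4i2, Cox6b2 and Cox8b, also known from muscle, testis or lung, had at most 3 UMIs in either library.

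B cell related genes split into those shared with pDC and those that were not. Ighm, the IgM heavy chain gene, stood at 743 and 673 CPM in clean pDC and at 1281 and 1243 CPM in B cell barcodes. Blnk, an adaptor of the B cell receptor pathway, stood at 358 and 312 CPM in clean pDC. Pax5 and Ms4a1 each had 0 UMIs in KP pDC and 2 in KPT pDC, and Ebf1 had 0 and 16 UMIs.

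Cd4, Cd8a and Cd8b1, which encode T cell coreceptors, were compared with Cd3 in the same barcodes. Over all pDC, KP had 43 Cd4, 130 Cd8a and 152 Cd8b1 UMIs beside 371 Cd3 UMIs, and KPT had 121, 235 and 282 beside 925. Cd4 UMIs per Cd3 UMI were 0.116 (0.0825 to 0.159) in KP pDC and 0.131 (0.107 to 0.158) in KPT pDC. That is close to CD4 T cell barcodes, at 0.110 and 0.115, although those were gated on holding Cd4, and pDC held Cd8 genes as well. Cd8a UMIs per Cd3 UMI were 0.35 (0.285 to 0.429) and 0.254 (0.219 to 0.293) in pDC, against 0.226 and 0.249 in CD8 T cell barcodes and 0.0712 and 0.0938 in all other kept cells.

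In pDC without any Cd3 UMI these genes were still present. Cd4 had 20 UMIs in 9 of 20 KP pDC and 26 UMIs in 15 of 38 KPT pDC, 92.7 CPM (56.6 to 143) and 58.7 CPM (38.3 to 86.0). Cd8a had 28 UMIs in 6 and 102 UMIs in 23 pDC, 129.8 CPM (86.2 to 188) and 230.2 CPM (188 to 279). Cd8b1 had 60 UMIs in 12 and 109 UMIs in 20 pDC, 278 CPM (212 to 358) and 246 CPM (202 to 297). Per cell the highest values in KP and KPT were 4 and 6 UMIs for Cd4, 10 and 12 for Cd8a and 18 and 15 for Cd8b1, and many cells were at 0. All 3 were far higher than in other kept cells without Cd3, where Cd4 was 2.26 and 3.43 CPM, Cd8a 3.07 and 3.23 CPM and Cd8b1 1.08 and 1.51 CPM. The intervals of KP and KPT overlapped for Cd4 and Cd8b1, and for Cd8a the KP interval ended where the KPT interval began.

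**Figure D4:**
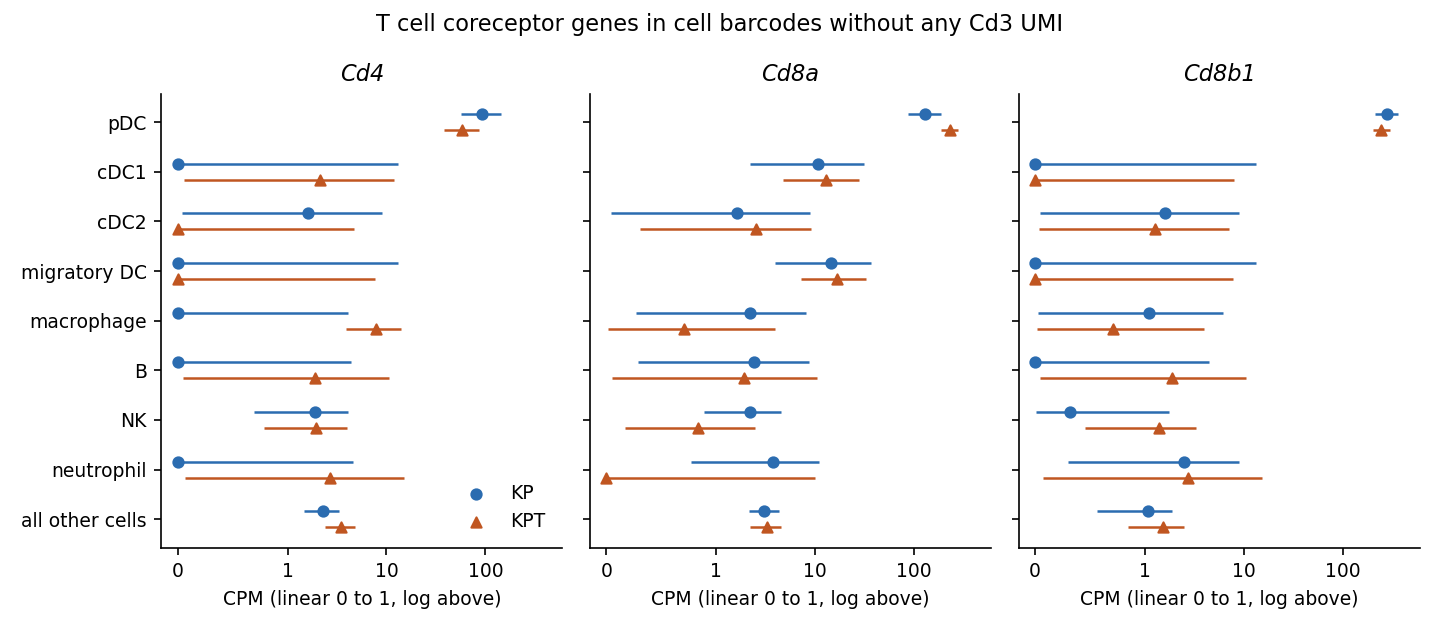
Summed Cd4, Cd8a and Cd8b1 level (CPM, linear to 1 and logarithmic above) in barcodes without any Cd3 UMI, by cell class, for KP (circles) and KPT (triangles), with exact Clopper-Pearson 95% intervals. The pDC lie at 58.7 to 278 CPM for the 3 genes, to the right of every other class, whose highest value is 16.7 CPM for Cd8a in KPT migratory dendritic cells.

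cDC2 barcodes without Cd3 had greater depth and serve as the background. With medians of 12227 and 12796 UMIs against 10629 and 10775 in pDC, Cd8b1 was detected in 1 of 51 cDC2 in each library (1.96%) and in 60% of KP and 52.6% of KPT pDC. Thinned to 5000 UMIs per cell, Cd8b1 was detected in 10 of 20 and 16 of 38 pDC and in 0.509% and 0.257% of the other Cd3-free cells, with 1472 and 1023 shallower cells left out. The Cd8a share of Cd3-free cDC1, a class known for CD8 alpha in lymphoid organs, was 3 of 28 and 4 of 53, with 0 Cd8b1 UMIs in both libraries. In clean pDC, which were chosen for few T cell genes, all 20 T cell genes together had 14 UMIs in KP and 30 in KPT, while Cd8a had 28 and 102, Cd8b1 57 and 98 and Cd4 18 and 27. Foxp3, the regulatory T cell factor, had 0 UMIs in all 58 Cd3-free pDC, which allows up to 13.9 CPM in KP and 6.77 CPM in KPT, and 33 and 58 UMIs in pDC with Cd3.

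Cell by cell, 45 of the 58 Cd3-free pDC held at least 1 UMI of Cd4, Cd8a or Cd8b1. Cd8a and Cd8b1 were found together in 18, Cd8a alone in 11, Cd8b1 alone in 14 and neither in 15. Of the 24 cells that held Cd4, 22 also held a Cd8 gene. All 24 had at least 8 Siglech UMIs, and 40 of the 48 Cd3-free pDC with that many held a Cd8 gene. Per Cd8a UMI there were 2.14 (1.35 to 3.49) Cd8b1 UMIs in KP and 1.07 (0.808 to 1.41) in KPT Cd3-free pDC, against 0.892 and 0.773 in CD8 T cell barcodes. Cd8b1 (chr6:71322788-71337494) and Cd8a (chr6:71373427-71379173) lie 35932 bases apart in GRCm38 and do not overlap.

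pDC with at least 4 Cd3 UMIs had further coreceptor UMIs. They held 18 Cd4 UMIs per 369 Cd3 UMIs in KP, a ratio of 0.0488 (0.0286 to 0.0782), and 94 per 924 in KPT, 0.102 (0.0814 to 0.126). Their Cd8a ratios were 0.257 (0.203 to 0.323) and 0.136 (0.112 to 0.164). How much of these UMIs came from T cell RNA was not tested.

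A small set of Cd3-free cells that the rule counts as pDC had low Siglech. After the values were seen, Cd3-free pDC were split at 8 Siglech UMIs, where no cell lay between 7 and 12. The 10 below it, 6 in KP and 4 in KPT, held no Cd4 UMI, and 3 held Cd8a or Cd8b1; of the 48 above it, 24 held Cd4 and 40 held a Cd8 gene. Dntt and Fcrla had 0 UMIs in the 10 and 166 and 171 UMIs in the 48. Pacsin1 had 1 UMI against 133. The 10 also had less Cox6a2, a gene of the rule, at 118 CPM against 1389 CPM, and less Irf8, at 335 CPM against 1357 CPM. Most of these UMIs lay in 1 KP cell, which held 10 of the 12 Cox6a2 UMIs and 25 of the 34 Irf8 UMIs. Cox6a2 was detected in 3 and Irf8 in 4 of the 10.

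Tcf4 and Bst2 helped choose these 10 cells. Tcf4 stood at 1181 CPM against 1471 CPM and Bst2 at 3110 CPM against 3650 CPM, and in KPT alone Tcf4 was 817 CPM against 1471 CPM and Bst2 1938 CPM against 3567 CPM. Ly6c2, a Ly6 family surface protein, was higher at 3365 CPM against 1523 CPM, but in KPT alone it was 1494 CPM against 1549 CPM. Cd7, a receptor also found on T and NK cells, was 1014 CPM against 420 CPM, detected in all 10. Cd209a, a lectin known from type 2 and monocyte-derived dendritic cells, was 403 CPM against 106 CPM, Cd86 88.6 CPM against 12.6 CPM and Cd83 187 CPM against 43.1 CPM. In KP alone Cd209a was 153 CPM against 89.2 CPM, and in KPT alone Cd86 was 23.3 CPM against 15.0 CPM. Genes of the transitional and conventional dendritic cell list went both ways. S100a4 was 285 CPM against 30.5 CPM, Tmem176a 148 CPM against 23.3 CPM and Cx3cr1 78.7 CPM against 5.38 CPM. The Cx3cr1 level rested on 8 UMIs in 2 of the 10. In KP alone S100a4 was 119 CPM against 25.5 CPM and Tmem176a 51.0 CPM against 19.1 CPM. Clec10a was lower, at 98.4 CPM against 203 CPM. Zbtb46, a factor of conventional dendritic cells, had 2 UMIs in the 10 and 2 in the 48. Xcr1 and Ccl22 had 0 in both, and Ccr7 had 0 and 11. Some pDC genes were thus low or absent in the 10, while others, such as Bcl11a at 344 CPM against 237 CPM, were not. The name pDC, given by the rule, is therefore uncertain for them. These values describe 10 cells, and no test was made.

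pDC made up a larger share of kept cells in KPT. The share was 0.600% (0.413 to 0.841) in KP and 1.21% (0.944 to 1.53) in KPT, a ratio of 2.02 (1.32 to 3.16). In clean pDC the ratio was 1.77 (0.969 to 3.34) and in Cd3-free pDC 1.84 (1.04 to 3.33). Shares of other classes also differed, 2.15-fold for macrophage, 2.99-fold for cDC1, 0.645-fold for B cell and 0.406-fold for neutrophil barcodes. With 1 library of each genotype, the genotype and the library cannot be told apart.

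Over all pDC, most of the 10 genes ranked highest in KPT against KP were at 0 in KP and lay in few KPT cells. Of 4751 genes, 530 (11.2%) were at least 1.5-fold higher and 222 (4.67%) at least 1.5-fold lower in KPT. Procr, the protein C receptor, C1qc, a complement subunit, and Mmp12, a macrophage elastase, had 0 UMIs in KP and 95, 109 and 98 UMIs in KPT. That made them at least 12.2-fold, 13.9-fold and 12.5-fold higher when KP is set to 3 UMIs. Of the UMIs in KPT, 85 of 95 for Procr, 41 of 109 for C1qc and 41 of 98 for Mmp12 lay in 1 cell, which left 10, 68 and 57 without it, and the 3 genes had 0 UMIs in clean pDC of both libraries. Clec4e, Ccl22, Bcl2a1a, Nlrp3, Pgf and Tgfbi were likewise at 0 in KP and had 59 to 95 UMIs in KPT. Of these, 54 of 80 for Ccl22 and 54 of 68 for Pgf lay in 1 cell, and 26 and 14 were left without it. Cxcl2, a neutrophil chemokine, had 8 and 739 UMIs, a ratio of 35.4 (17.9 to 82.4), and 5 and 10 UMIs in clean pDC, a ratio of 1.08 (0.337 to 4.03).

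The macrophage and monocyte list, which marks another cell type, is given beside these genes. Of its 8 measured genes, 7 were at least 1.5-fold higher in KPT, against 11.2% of all genes, with a median log2 ratio of 2.91. Its 17 genes together stood at 403 and 1596 CPM over all pDC, at 422 and 234 CPM in clean pDC and at 3039 and 3590 CPM in other cells. In clean pDC, 9 of the 17 were at 0 UMIs in KP and 11 in KPT, and C1qc, Fn1 and Vcan were at 0 in both libraries. The part of macrophage RNA in the other differences between all KPT and all KP pDC was not tested.

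Genes lower in KPT over all pDC included some that stayed lower in clean pDC. Iigp1, an interferon gamma induced GTPase, had 53 and 29 UMIs, a ratio of 0.210 (0.129 to 0.336), but 45 of the KP UMIs lay in 1 cell. Without that cell the ratio was 1.36 (0.607 to 3.44), the opposite direction. Ly6c2 had 816 and 1191 UMIs (1636 and 916 CPM), a ratio of 0.560 (0.512 to 0.613), and 0.684 (0.604 to 0.774) in clean pDC. Smim5 was at 0.481 (0.374 to 0.621), and 0.559 (0.385 to 0.810) in clean pDC. Polr2i, an RNA polymerase II subunit, was at 0.413, and at 0.259 (0.114 to 0.552) in clean pDC. Gem, a small GTPase, was at 0.493 and at 0.203 in clean pDC, where 36 of its 40 KP UMIs lay in 1 cell. Without that cell the ratios were 0.778 (0.566 to 1.08) over all pDC and 1.92 (0.613 to 7.96) in clean pDC. Id3, Mef2c and Igtp had ratios of 0.272, 0.535 and 0.384. In clean pDC they were 0.686 (0.398 to 1.19), 0.788 (0.641 to 0.972) and 0.45 (0.109 to 1.77), so the intervals of Id3 and Igtp included 1. Gzmb and Il1rl1, lymphocyte genes, had 0 UMIs in KP clean pDC.

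In clean pDC the ranking was different. Of 1695 genes, 133 (7.85%) were at least 1.5-fold higher and 79 (4.66%) at least 1.5-fold lower in KPT. Of the genes called over all pDC and measured in both sets, 33 of 59 higher and 23 of 52 lower genes were called in both.

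Among the 10 genes ranked highest in KPT clean pDC were Fosb, Atf3 and Nr4a3. Fosb, an AP-1 subunit induced within minutes by many stimuli, had 16 UMIs in 6 of 18 KP cells and 201 UMIs in 29 of 33 KPT cells (85.5 and 581 CPM), a ratio of 6.79 (4.08 to 12.1). Per cell it ran from 0 to 7 UMIs in KP (median 0) and from 0 to 37 in KPT (median 3), so the ranges overlapped. In the other kept cells its ratio was 1.35. Atf3, a stress-induced factor, had 13 UMIs in 2 KP cells and 127 in 11 KPT cells, a ratio of 5.28 (2.98 to 10.2), with 45 of the KPT UMIs in 1 cell. Nr4a3, an orphan nuclear receptor, had 23 and 114 UMIs, a ratio of 2.68 (1.70 to 4.4).

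The other 7 were of mixed kinds. Il1b, ranked first, the inflammatory cytokine interleukin 1 beta, had 0 UMIs in KP and 61 in 8 of 33 KPT cells, 30 of them in 1 cell. It was at least 11-fold higher with KP set to 3 UMIs, and over all pDC, mixed barcodes included, it had 151 and 1160 UMIs. Neat1, a nuclear noncoding RNA, had 40 and 181 UMIs, a ratio of 2.45 (1.73 to 3.54), and Tubb2a, a tubulin, 17 and 116, a ratio of 3.69 (2.21 to 6.55). Cyfip1, Sdc4 and Orai1 had ratios of 3.78, 2.29 and 2.63. Dnajb1, a heat shock cochaperone, had a ratio of 3.53 (2.04 to 6.55) that was absent in Cd3-free pDC, at 0.898 (0.647 to 1.26).

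Among genes lower in KPT clean pDC, Crip1, a LIM domain protein, had 296 and 253 UMIs (1582 and 731 CPM), a ratio of 0.462 (0.389 to 0.548). Of these UMIs, 93 lay in 1 KP cell and 72 in 1 KPT cell. With only that KP cell left out, the ratio of Crip1 was 0.633 (0.524 to 0.765), and over all pDC it was 0.774. Sms, which encodes spermine synthase, and Rpgrip1 had ratios of 0.405 (0.237 to 0.687) and 0.446 (0.272 to 0.725), while Cebpb and Socs3 had 0.491 and 0.513. Without the KP cell with the most UMIs of the gene, Cebpb was at 0.657 (0.424 to 1.03) and Socs3 at 0.711 (0.465 to 1.09). Both of these intervals included 1. Those of Sms, at 0.457 (0.261 to 0.795), and Rpgrip1, at 0.498 (0.299 to 0.828), did not. Over all pDC the ratios of Sms, Rpgrip1, Cebpb and Socs3 were 0.810, 0.883, 0.949 and 1.46, so Socs3 went the other way. Iigp1 and Gem, given above, ranked first but rested on 1 KP cell each, and without it the clean ratio of Iigp1 was 7.13 (1.08 to 301). Resf1, Rsrp1 and Tmem219 had ratios of 0.396, 0.470 and 0.410, and that of Resf1 was 1.08 in Cd3-free pDC.

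Most pDC programme genes differed little between the libraries in clean pDC. Siglech had a ratio of 1.16 (1.02 to 1.32), Ccr9 0.880 (0.775 to 1.00), Bst2 0.905 (0.827 to 0.992), Cox6a2 0.911 (0.779 to 1.07) and Tcf4 0.988 (0.855 to 1.14). Klk1 stood out among the selection genes at 0.522 (0.398 to 0.683), with 615 and 321 CPM and detection in 66.7% and 63.6% of cells. Of 14 measured transcription factors, 1 was at least 1.5-fold higher and 1 lower, against 7.85% and 4.66% of all genes: Runx2 at 1.51 (1.10 to 2.11) and Klf4 at 0.586 (0.419 to 0.821). Of 34 surface and other marker genes, 2 were higher and 3 lower, near the same shares. Clec12a, an inhibitory lectin, was at 1.99 (1.31 to 3.12), Ly6a at 1.51 (1.24 to 1.85), Rpgrip1 at 0.446, Smim5 at 0.559 and Cd209d at 0.623 (0.449 to 0.867).

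The median log2 ratio over all genes was 0.02 in all pDC and 0.01 in clean pDC. Antigen presentation genes had 7 of 17 higher, against 11.2% of all genes, and a median of 0.54 over all pDC, and 0 of 10, against 7.85%, and 0.07 in clean pDC. H2-Eb1 was at 2.14 over all pDC and 1.08 (0.855 to 1.36) in clean pDC. Selection genes and other surface markers had medians of -0.36 and -0.32 over all pDC and -0.14 and -0.13 in clean pDC. Secretory genes had -0.06 and 0.01, and cytochrome c oxidase genes -0.11 and below 0.01 (0.004). In these lists the clean median lay closer to the all-gene median than that of all pDC.

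**Figure D5:**
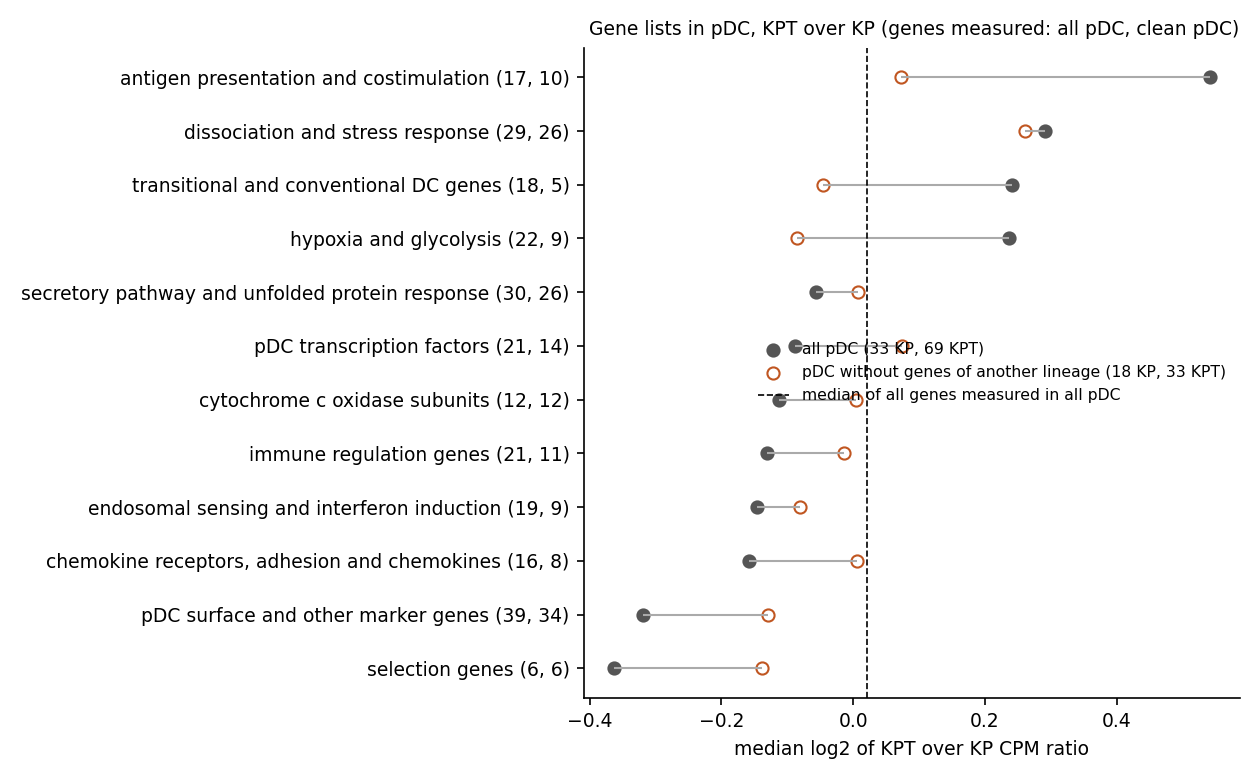
Median log2 KPT over KP ratio of each gene list in pDC (horizontal axis) over all pDC (filled) and clean pDC (open), with the number of genes measured in each set after the list's name; the dashed line is the all-gene median of 0.02. Antigen presentation lies at 0.54 and 0.07 and the dissociation and stress list at 0.29 and 0.26; lists with under 5 genes measured in clean pDC, such as macrophage genes, are not drawn.

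The dissociation and stress list had the largest clean median of the lists drawn, with 5 of 26 genes higher and 0 lower, against 7.85% and 4.66% of all genes, and a median of 0.26. These were Fosb, Atf3, Dnajb1, Hspa1b and Nr4a1, an early response nuclear receptor at 1.83 (1.42 to 2.39) with 93.9% and 72.2% of KPT and KP cells positive. Fos and Jun were at 1.2 (0.984 to 1.46) and 0.902 (0.750 to 1.09), and Egr1, with 1 positive KP cell, was at 0.158. In Cd3-free pDC the list median was -0.13, so its sign depends on which cells are included. The list holds genes known to be induced while tissue is dissociated.

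Of 4 interferon-stimulated genes with at least 50 UMIs in clean pDC, none was past 1.5-fold between KPT and KP. Below that limit, 3 genes chosen after their values were seen lay in few KP cells. Usp18 stood at 118 and 2.89 CPM, Rsad2 at 96.2 and 2.89 CPM and Oasl2 at 96.2 and 11.6 CPM, but Rsad2 was detected in 5.56% of KP clean pDC and Usp18 in 16.7%. Ifi35, detected in more cells, had a ratio of 1.02 (0.548 to 1.95).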

How the data were processed

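Unique molecular identifiers were counted per gene and cell barcode in 1 KP and 1 KPT library. The deposited values are raw counts made with Cell Ranger 6.0.1, per the file headers, and the submitters' processing notes also name Seurat and mm10. Kept cells had at least 200 genes and at most 10% mitochondrial UMIs. No doublet caller was run.

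Counts were summed over the cells of a class and scaled to CPM with Python 3.11.15, numpy 2.4.6, scipy 1.17.1 and pandas 2.3.3, and plotted with matplotlib 3.10.9. Shares and single levels have exact Clopper-Pearson or Poisson 95% intervals, and ratios of levels or shares have exact conditional intervals. With 1 library per group no test was made. A gene was measured when it had at least 50 UMIs in pDC over both libraries. The calculations were tested on simulated data. The named genes are the selection genes, the coreceptor, CD3 and Tdg genes, the 20 highest and 10 lowest against other cells in both libraries, 10 each way between KPT and KP by the interval bound nearest 1, and the most abundant and most extreme genes of each list; the ranking in clean pDC, and some genes named beside others, were chosen after their values were seen. The members and lists were chosen with earlier results of these data known. Other cell classes were gated on their own markers in raw counts. Genes with near-identical copies (Klk1, Ly6c2, Klra17, Hspa1b, Bcl2a1a, interferon alpha genes) are uncertain. Gene coordinates and promoters come from GRCm38 annotation, and sequences not matched there were not used here.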

Additional observations from a re-analysis of the deposited data

How the results depend on the processing

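No paired analysis was possible because each genotype was 1 library. With Siglech at least 1 or 4, 3 of the other 5 genes or at most 5% mitochondrial UMIs, the share ratio of 2.02 stayed within its interval. Over both libraries Cd4 UMIs per Cd3 UMI were 0.127 and became 45 in clean pDC, where 1 Cd3 UMI was left. Cd8a per Cd3 was 0.282 and became 130 there and 0.222 with Siglech at least 1. The T cell genes that the clean filter counts include Cd3d, Cd3e and Cd3g but not Cd4 or Cd8a. The rises to 45 and 130 thus follow from the filter and are no check of the ratios. Genes at least 1.5-fold different between KPT and KP numbered 752 (530 higher, 222 lower). They numbered 212 in clean pDC (133 and 79), 277 in Cd3-free pDC (171 and 106), 1873 at a minimum of 20 UMIs (1238 and 635), 289 at a minimum of 100 UMIs (210 and 79) and 212 with cells thinned to 1000 UMIs (114 and 98). Fewer genes reached the minimum in the smaller sets, 1695 in clean pDC, 2055 in Cd3-free pDC and 807 after thinning, against 4751. The 454 genes at least 2-fold above other cells became 143 after thinning. Of the list medians, 1 was past 1.5-fold, against 2 with Siglech at least 1, 3 with Siglech at least 4, 2 with 3 of the other 5 genes, and 0 in clean pDC, in Cd3-free pDC and after thinning. With Siglech at least 1, the Cxcl2 ratio was 3.36 and the Procr ratio 1.60, against 35.4 and a lower bound of 9.69. Without the cell that held most of a gene's UMIs, the Iigp1 ratio was 1.36 over all pDC and 7.13 in clean pDC, and the Gem ratio 1.92 in clean pDC, all in the opposite direction. The Cd3-free set, the ranking in clean pDC and the single cells left out were chosen after seeing the data. With 33 and 69 pDC, a gene seen at 0 could still have had about 3 UMIs, 6.01 CPM in KP and 2.31 CPM in KPT.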

Other observations

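Some receptor genes for growth factors and interferon were detected in both libraries. Flt3, the receptor for the main growth factor of dendritic cells, stood at 132 CPM in KP pDC and 112 CPM in KPT pDC against 8.28 and 9.45 CPM in the other kept cells. Ifnar2, a type I interferon receptor chain, was detected in 33 of 33 and 67 of 69 pDC. Csf2rb, the shared beta chain of the GM-CSF receptor, stood at 385 CPM in KP and 217 CPM in KPT clean pDC, a ratio of 0.563 (0.402 to 0.789). Ccl5, a chemokine of T and NK cells, had 876 and 612 CPM over all pDC and 16.0 and 14.4 CPM in clean pDC. Ccl4 had a KPT to KP ratio of 1.56 (1.39 to 1.75) in clean pDC.

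Genes of immune regulation were mixed. Of 21 measured, 7 were at least 2-fold above the other cells, against 9.56% of all genes, among them Lag3, a checkpoint receptor that stood at 168 and 128 CPM against 43.9 and 44.5 CPM, and Havcr1, at 32.1 and 29.2 CPM against 0.332 and 0.176 CPM. Havcr2 and Tnfsf10 had 0 UMIs in clean pDC, and Ido1 had 1 UMI in KP and 0 in KPT over all pDC. Mki67, a marker of dividing cells, had 2 and 26 UMIs over all pDC and 0 in clean pDC, and Nkg7, a gene of cytotoxic lymphocytes, had 164 and 410 UMIs over all pDC and 0 in clean pDC. Of 22 measured genes of hypoxia and glycolysis, 3 were at least 1.5-fold higher in KPT over all pDC, near the 11.2% of all genes, with a median log2 ratio of 0.24, and 0 of 9 were in clean pDC, with a median of -0.09.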
